A study of Homo sapiens with 30 samples.

Results

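Nuclear receptors were examined as a family of 46 genes, taken by name from the 39359 genes of the count table. They comprise the receptors for thyroid hormone, retinoids, vitamin D and steroids, the sensors of lipids and foreign compounds, the clock receptors and the orphan receptors. Of the 46, 41 passed the filter on low counts and were tested. After 24 h of wild type p53, 13 of them were higher and 8 lower than in cells with the control vector, where 34.9% of all genes tested passed. Of these 21, 6 rose and 2 fell at least 2-fold (9.08% and 1.98% of all genes). NR1D1, NR4A1, NR4A3, RARB, NR5A2 and VDR rose and NR2E1 and NR3C2 fell by that much. Under RW mutant p53 no member passed the test at either time.

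Nuclear receptors are transcription factors with a DNA-binding domain and, in most members, a pocket that holds a small lipophilic ligand such as a steroid, a retinoid, a vitamin D metabolite or a fatty acid derivative. Ligand binding exchanges corepressors for coactivators on the receptor, and many members bind DNA as heterodimers with a retinoid X receptor (RXR). Orphan members have no accepted natural ligand, or none that is needed, and their activity follows mainly from how much of them is made.

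The cells were H1299, a human lung carcinoma line that lacks p53 on both alleles. They were transfected transiently with pGFP, which expresses GFP without p53, or with a vector that expresses GFP and wild type p53, RW mutant p53 with an altered codon 248, or p53 O6-meG, which carries O6-methylguanine in the template strand at that codon. O6-alkylguanine-DNA alkyltransferase (AGT) repairs this lesion. In p53 TM (for transcriptional mutagenesis) the same lesion vector was combined with 10 µM O6-benzylguanine, which inactivates AGT, and this agent was given to no other group. GFP-positive cells were sorted after 6 h or 24 h, and each of the 10 groups had 3 biological replicates of total RNA depleted of ribosomal RNA. All groups share 1 line and a p53 level set by a transfected vector, and a control with O6-benzylguanine alone was not analysed here, so the agent and the lesion cannot be told apart in comparisons of p53 TM.

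The 30 libraries held 32302699 to 71950532 counted reads (median 44424643). The second replicates of p53 TM and p53 O6-meG at 6 h have titles that contradict themselves. Both were placed by the parentheses in their titles and the genotype field, whereas the headers in the table of counts swap them. The p53 target CDKN1A goes against the placement used: it read 268, 50.0 and 261 CPM (the usual depth-scaled counts, here with TMM-scaled library sizes) in the libraries labelled p53 O6-meG at 6 h and 65.7, 249 and 57.7 CPM in those labelled p53 TM, with 242 to 262 CPM under wild type p53 and 34.0 to 43.7 CPM under pGFP. Results at 6 h that involve either group are therefore also given with the other placement and without both libraries. KRT8, KRT18 and VIM were abundant, EPCAM, CDH1 and KRT19 were at or near 0, and so were the lung markers SFTPB and SFTPC. The lung markers NKX2-1 and NAPSA were low but had counts in every library, at 0.0932 to 1.2 CPM and 0.0824 to 0.719 CPM. NAPSA overlaps NR1H2 on the opposite strand over 33.0% of its exon length. Of the epithelial markers only the keratins KRT8 and KRT18 were thus abundant, and no lung marker was.

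The family was expressed over a wide range before any p53 was added. Per kb of exon, NR2F6, an orphan repressor, was the highest member in pGFP cells at 24 h with 13.6 CPM per kb, followed by ESRRA with 11.0, RXRB with 9.31 and NR1H2 with 9.12 CPM per kb. At 6 h ESRRA, which drives genes of mitochondrial metabolism, came first with 15.8 CPM per kb and NR2F6 second with 13.8 CPM per kb. ESRRA read 54.4, 47.8 and 44.6 CPM in the 3 pGFP libraries at 6 h, and NR2F6 read 28.6, 39.9 and 39.8 CPM at 24 h, so that libraries of ESRRA and NR2F6 overlapped per kb at both times and their order was not resolved.

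The plot of levels without p53 shows the other end of the range. The xenobiotic sensors NR1I2 and NR1I3, the hepatocyte factor HNF4A, the retinoid receptor RXRG and NR0B2, a receptor without a DNA-binding domain, never had more than 4 counts in a library, and NR1I3, HNF4A and NR0B2 stayed at 2 counts or fewer and are regarded as not detected at this depth. The estrogen receptor gene ESR1 had at most 0.0436 CPM in any pGFP library at 6 h. Among the classical steroid receptors, NR3C1, which encodes the glucocorticoid receptor, had the highest level at 24 h in pGFP with 6.8 CPM per kb, ahead of NR3C2 with 0.82 CPM per kb and PGR with 0.0682 CPM per kb.

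**Figure D1:**
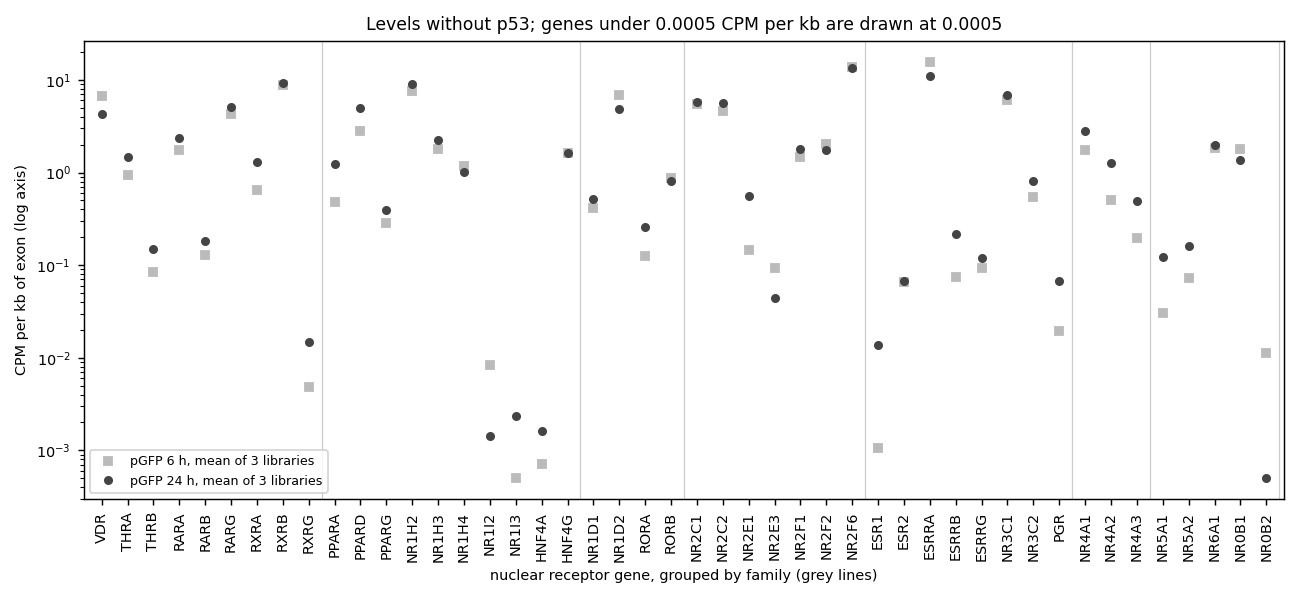
Level of the 46 nuclear receptor genes in pGFP cells at 6 h (grey squares) and 24 h (dark circles), as the mean CPM per kb of exon over 3 libraries, on a log axis, with grey lines between families. NR2F6 and ESRRA lie above 10 CPM per kb at both times, and RXRG, NR1I2, NR1I3, HNF4A and NR0B2 lie below 0.02 CPM per kb.

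The main question was whether wild type p53 changes the family. At 24 h, 21 of 41 members (51.2%) passed an adjusted P of 0.05, against 34.9% of all 20875 genes tested, with 13 higher (20.3% of genes) and 8 lower (14.6% of genes). At least 2-fold rises were seen in 6 members, with a background of 9.08% of genes, and at least 2-fold falls in 2 members, with a background of 1.98%. The median log2 fold change was 0.11 over the members and 0.01 over all genes. Adjusted P values here and below are from edgeR (quasi-likelihood test, Benjamini-Hochberg adjustment over all genes tested), and each fold change is followed by the standard error (SE) of its log2 value, with n = 3 per group. In 17 of the 21 members the call was kept in every alternative and with every library left out. The calls of RXRA, ESR2, ESRRA and NR0B1 were lost without pGFP replicate 1 and without wild type p53 replicate 2, and those of RXRA and ESRRA also without a filter on low counts. In bulk RNA from sorted cells, a lower level per cell and fewer cells with the transcript cannot be told apart.

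Cell type markers were examined beside this result. Of 10 that were tested, VIM was 1.26-fold higher and COL1A1 2.88-fold lower with wild type p53 at 24 h, and the other 8 did not pass. The 7 markers of leukocytes, endothelium, fibroblasts and hepatocytes summed to 2.88 to 3.82 CPM in pGFP and 1.66 to 2.7 CPM in wild type p53 libraries, with PTPRC, which marks leukocytes, at no more than 2 counts in any library. At 24 h the same sum was 1.83 to 4.11 CPM with RW mutant p53, 1.52 to 2.61 CPM with p53 O6-meG and 1.41 to 3.04 CPM with p53 TM. The part of these markers in the changes of the receptors was not tested.

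**Figure D2:**
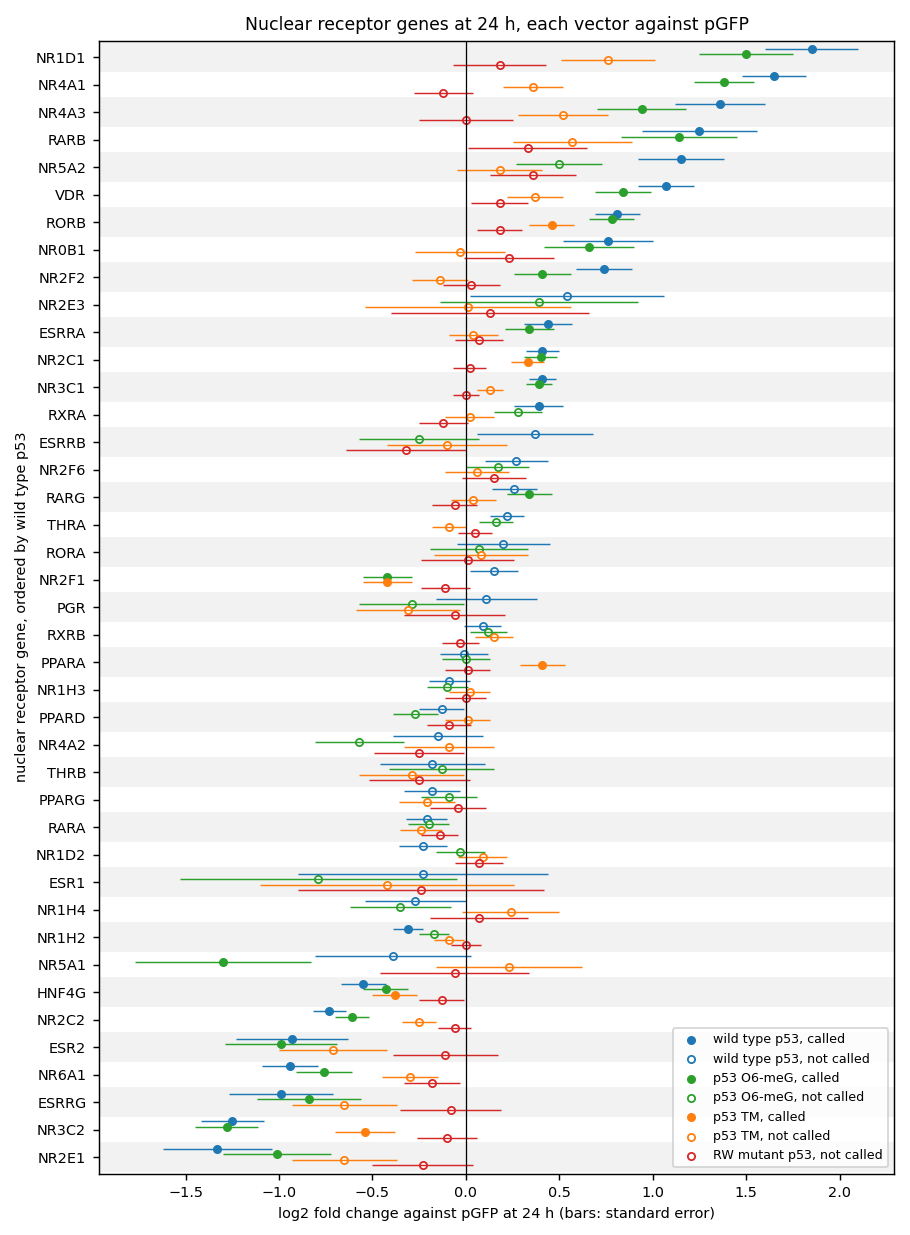
Log2 fold change against pGFP at 24 h of the 41 tested nuclear receptor genes for wild type p53, p53 O6-meG, p53 TM and RW mutant p53, with SE bars, where filled points passed an adjusted P of 0.05. NR1D1 lies highest at 1.85 and NR2E1 lowest at −1.33 for wild type p53, and no RW mutant point is filled.

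Among the receptors for vitamin D, thyroid hormone and retinoids, 3 of the 8 tested (37.5%) rose with wild type p53 at 24 h and none fell, where 34.9% of all genes passed. VDR (ENSG00000111424.10, chromosome 12, 47841537 to 47943048 of hg38) encodes the receptor for the active form of vitamin D. It belongs to a list of p53 targets that the study sorted by time on these same libraries, so its rise is not independent evidence. VDR read 25.7, 22.4 and 24.1 CPM in pGFP and 60.0, 51.4 and 40.2 CPM with wild type p53. The groups did not overlap, and the rise was 2.1-fold (log2 1.07, SE 0.15, adjusted P = 2.8e-06). The libraries of p53 O6-meG were nearly as high, at 49.0, 44.6 and 35.8 CPM, those of p53 TM lay in between at 37.4, 28.6 and 27.2 CPM, and RW mutant p53, at 30.9, 27 and 24.0 CPM, overlapped with pGFP.

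RARB (ENSG00000077092.18, chromosome 3, 24687887 to 25597932 of hg38) encodes retinoic acid receptor beta, which is known to be induced by retinoic acid itself. The RefSeq promoter tables hold 4 windows for it, each of 300 bases, from 250 bases before to 50 bases after an annotated start. In 1 of these, chr3:25428013-25428312 on the plus strand of GRCh38.p14, inside the gene, a direct repeat of the retinoic acid element type was found, shown here in capitals, and the window is given because RARB rose.
RARB: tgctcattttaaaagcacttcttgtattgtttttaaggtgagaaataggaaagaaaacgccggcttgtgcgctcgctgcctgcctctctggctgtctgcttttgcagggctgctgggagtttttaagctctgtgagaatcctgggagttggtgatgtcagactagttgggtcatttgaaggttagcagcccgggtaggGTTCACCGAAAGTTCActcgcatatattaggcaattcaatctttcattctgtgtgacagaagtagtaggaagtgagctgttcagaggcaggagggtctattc
The motif, a pair of GTTCA letters with 6 bases of any kind between them, searched on both strands, begins 52 bases before the start. It was present in 20 of 35116 windows of all genes (0.057%) and in 1 of 96 windows of the members. Counts are per gene and do not tell which start was used, and a match is not evidence of binding.

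RARB was low in pGFP, at 1.81, 1.59 and 1.75 CPM, and read 5.89, 4.04 and 2.37 CPM with wild type p53 at 24 h. All 3 wild type libraries lay above all 3 pGFP libraries, although their own values spread widely, and the rise was 2.39-fold (log2 1.25, SE 0.31, adjusted P = 0.0024). RXRA, the shared heterodimer partner, rose 1.31-fold (log2 0.39, SE 0.13, adjusted P = 0.016), from 14.0, 16.7 and 15.9 CPM to 19.2, 23.7 and 18.3 CPM. The other members of this class did not pass. RARG, the retinoid receptor typical of epithelia, was at log2 0.26 (SE 0.12), THRA at 0.22 (SE 0.09), RXRB at 0.09 (SE 0.1), THRB at −0.18 (SE 0.28) and RARA at −0.21 (SE 0.11), with adjusted P from 0.061 for THRA to 0.67 for THRB.

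Of the 7 lipid and xenobiotic sensors tested, NR1H2 and HNF4G fell (28.6%, where 34.9% of all genes passed) and the others did not pass. NR1H2, the widely expressed oxysterol receptor LXR beta, read 48.3, 47.5 and 50.3 CPM in pGFP and 34.0, 41.4 and 42.8 CPM with wild type p53, a fall of 1.24-fold (log2 −0.31, SE 0.08, adjusted P = 0.0045), and 22.1% of its exon length overlaps NAPSA on the opposite strand. HNF4G, a relative of HNF4A found in gut and kidney, fell 1.46-fold (log2 −0.55, SE 0.12, adjusted P = 0.00061), from 7.06, 8.72 and 7.87 CPM to 4.91, 5.98 and 5.27 CPM. The fatty acid receptors PPARA, PPARD and PPARG were at log2 −0.01 (SE 0.13), −0.13 (SE 0.12) and −0.18 (SE 0.15), LXR alpha (NR1H3) at −0.09 (SE 0.11) and the bile acid receptor NR1H4 at −0.27 (SE 0.27).

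Of the 4 clock receptors, NR1D1 and RORB rose (50%, where 34.9% of all genes passed). NR1D1 (ENSG00000126368.5, chromosome 17, 40092793 to 40100589 of hg38) encodes REV-ERB alpha, a heme-binding repressor in the circadian clock. It read 1.39, 1.25 and 1.5 CPM in pGFP and 5.51, 4.77 and 4.58 CPM with wild type p53. This was the largest rise in the family, 3.59-fold (log2 1.85, SE 0.25, adjusted P = 1.7e-06), and its groups were far apart. Over 18.0% of its exon length NR1D1 overlaps THRA on the opposite strand. The sources used here do not give the strand option used for counting, so reads in this overlap could be left out or assigned to the wrong gene. THRA itself was at log2 0.22. RORB, an activator on the same DNA elements, rose 1.75-fold (log2 0.81, SE 0.12, adjusted P = 7.1e-06), from 7.75, 8.13 and 7.66 CPM to 15.5, 15.0 and 10.8 CPM. The close relatives NR1D2 and RORA did not pass, at log2 −0.23 (SE 0.13) and 0.2 (SE 0.25).

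In the NR2 group 4 of the 7 tested members passed (57.1%, beside 34.9% of all genes), with 2 in each direction. NR2F2 (COUP-TFII), an orphan regulator of vascular and mesenchymal development, rose 1.67-fold (log2 0.74, SE 0.15, adjusted P = 0.00027). Its libraries read 9.43, 12.8 and 11.8 CPM in pGFP and 18.9, 18.7 and 19.3 CPM with wild type p53, which was a clear separation. The testicular receptors NR2C1 and NR2C2, which can pair with each other, went opposite ways. NR2C1 rose 1.32-fold (log2 0.41, SE 0.09, adjusted P = 0.00079), from 38.8, 36.8 and 35.8 CPM to 54.9, 48.2 and 44.4 CPM. NR2C2 fell 1.66-fold (log2 −0.73, SE 0.09, adjusted P = 4.8e-07), from 74.6, 64.3 and 62.8 CPM to 36.8, 41.9 and 43.0 CPM. Genes on the opposite strand, FGD5-AS1 and MRPS25 among them, overlap 61.9% of the exon length of NR2C2, which makes its count uncertain.

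NR2E1 (ENSG00000112333.11, chromosome 6, 108166022 to 108188805 of hg38), known as TLX, keeps neural stem cells undifferentiated. It was low, with 2.21, 2.09 and 2.05 CPM in pGFP, and dropped to 1.33, 0.734 and 0.475 CPM with wild type p53, a fall of 2.51-fold (log2 −1.33, SE 0.29, adjusted P = 0.00077). NR2F1, NR2F6 and the photoreceptor gene NR2E3 did not pass, at log2 0.15 (SE 0.13), 0.27 (SE 0.17) and 0.54 (SE 0.52).

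Of the 8 steroid and estrogen-related receptors tested, 2 rose and 3 fell (62.5%, where 34.9% of all genes passed). NR3C1 read 62.2, 62.0 and 62.6 CPM in pGFP and 88.8, 81.5 and 77.6 CPM with wild type p53, a rise of 1.33-fold (log2 0.41, SE 0.07, adjusted P = 8.5e-05) with no overlap. NR3C2 (ENSG00000151623.14, chromosome 4, 148078762 to 148444698 of hg38), which encodes the mineralocorticoid receptor that binds aldosterone and cortisol, moved the other way. It read 6.39, 5.09 and 4.76 CPM in pGFP and 1.78, 2.53 and 2.52 CPM with wild type p53, a fall of 2.37-fold (log2 −1.25, SE 0.17, adjusted P = 2.3e-06).

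The estrogen receptor and its relatives were mixed. ESR2, estrogen receptor beta, fell 1.9-fold (log2 −0.93, SE 0.3, adjusted P = 0.017) at a low level, from 0.959, 0.75 and 0.713 CPM to 0.501, 0.367 and 0.404 CPM. ESRRG fell 1.99-fold (log2 −0.99, SE 0.28, adjusted P = 0.0074), from 1.57, 1.23 and 1.15 CPM to 0.852, 0.605 and 0.522 CPM. ESRRA rose 1.35-fold (log2 0.44, SE 0.13, adjusted P = 0.0096), from 28.5, 36.8 and 36.9 CPM to 37.3, 53.1 and 47.7 CPM, so that all wild type libraries lay above the pGFP libraries by a small margin. ESR1, the progesterone receptor gene PGR and ESRRB did not pass, at log2 −0.23 (SE 0.67), 0.11 (SE 0.27) and 0.37 (SE 0.31).

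The NR4A receptors are immediate-early orphan factors whose genes respond within minutes to growth factors and stress. NR4A1 (ENSG00000123358.19, chromosome 12, 52022832 to 52059507 of hg38), also called NUR77, was at 19.8, 22.8 and 19.2 CPM in pGFP and at 67.5, 75.0 and 51.1 CPM with wild type p53. The groups were far apart and the rise was 3.14-fold (log2 1.65, SE 0.17, adjusted P = 4.6e-08). NR4A1AS overlaps 10.3% of its exon length on the opposite strand. NR4A3 (ENSG00000119508.17, chromosome 9, 99821855 to 99866891 of hg38) rose 2.57-fold (log2 1.36, SE 0.24, adjusted P = 6.9e-05), from 3.04, 3.02 and 3.27 CPM to 10.0, 7.56 and 6.39 CPM. NR4A2 did not follow, at log2 −0.15 (SE 0.24).

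Genes of this subfamily are known for response to cyclic AMP, and the RefSeq window of NR4A3, chr9:99821635-99821934 on the plus strand of GRCh38.p14, holds 4 copies of the core TGACG of the cyclic AMP element, in capitals below (CGTCA is the same core on the other strand).
NR4A3: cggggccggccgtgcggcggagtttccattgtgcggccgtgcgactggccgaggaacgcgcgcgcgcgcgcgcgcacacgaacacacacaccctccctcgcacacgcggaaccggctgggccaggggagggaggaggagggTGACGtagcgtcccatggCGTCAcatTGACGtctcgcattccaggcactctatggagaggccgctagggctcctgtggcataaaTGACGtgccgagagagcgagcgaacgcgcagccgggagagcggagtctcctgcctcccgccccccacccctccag
They begin 109, 91, 83 and 25 bases before the start. The core was searched on both strands and is common: 24.6% of all windows and 21.9% of the 96 member windows hold at least 1 copy.

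Of the 4 tested members of the NR5, NR6 and NR0 groups, 2 rose and 1 fell (75%, where 34.9% of all genes passed). NR5A2 (ENSG00000116833.13, chromosome 1, 200027614 to 200177420 of hg38) encodes LRH-1, which controls bile acid and steroid genes in liver and gonads. It read 1.17, 1.23 and 1.2 CPM in pGFP and 3.81, 2.29 and 1.92 CPM with wild type p53, a rise of 2.22-fold (log2 1.15, SE 0.23, adjusted P = 0.00021). Among the members with at least a 2-fold rise whose promoter windows were searched, its window chr1:200027460-200027759 on the plus strand of GRCh38.p14 held a match to the consensus half-site of p53, in capitals, beginning 46 bases before the start.
NR5A2: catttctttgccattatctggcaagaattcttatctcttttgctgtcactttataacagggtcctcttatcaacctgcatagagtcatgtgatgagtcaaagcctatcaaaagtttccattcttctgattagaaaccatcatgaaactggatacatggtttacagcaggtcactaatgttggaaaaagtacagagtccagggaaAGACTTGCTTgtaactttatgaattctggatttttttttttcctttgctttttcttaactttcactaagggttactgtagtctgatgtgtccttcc
Such a match was found in 6.63% of all windows and 5.21% of the member windows, and a single half-site is a description of letters and not of binding. The nuclear receptor core AGGTCA stood in 13.8% of all windows and in 16.7% of the member windows.

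NR0B1 (DAX1), which represses steroid genes, rose 1.69-fold (log2 0.76, SE 0.24, adjusted P = 0.015), from 2.26, 3.2 and 2.74 CPM to 3.94, 5.53 and 4.42 CPM. NR6A1, the germ cell nuclear factor, fell 1.92-fold (log2 −0.94, SE 0.15, adjusted P = 1.6e-05), from 16.1, 12.5 and 13.4 CPM to 6.97, 6.52 and 8.38 CPM. NR5A1 (SF-1), the master regulator of steroid genes, did not pass, at log2 −0.39 (SE 0.42) and under 0.5 CPM in every library of both groups.

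**Figure D3:**
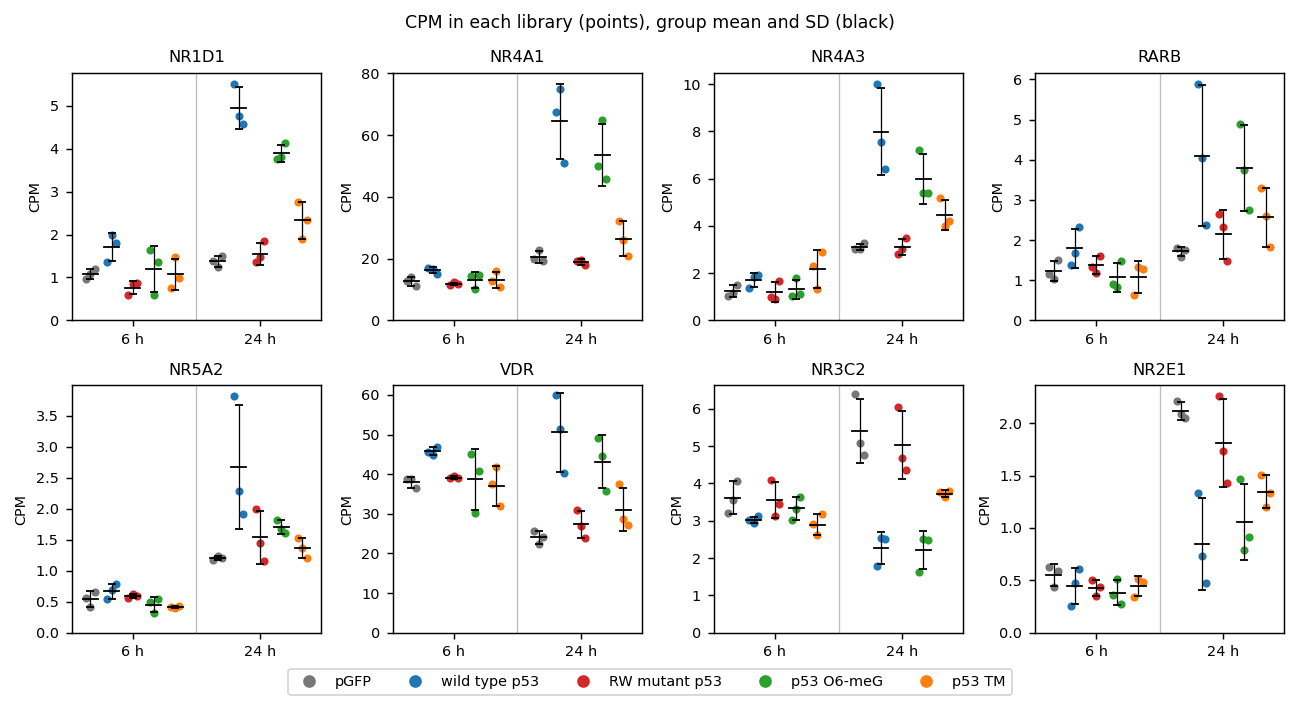
CPM of the 8 members that changed at least 2-fold with wild type p53 at 24 h, in each of the 30 libraries (points, coloured by vector) with the group mean and SD in black, at 6 h (left of the line) and 24 h (right). In NR4A1 the wild type libraries at 24 h span 51.1 to 75.0 CPM and those of pGFP 19.2 to 22.8 CPM.

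Whether the family responds early was asked at 6 h. No member passed with wild type p53, against 8.75% of all genes, by edgeR or by DESeq2, and 6 had an unadjusted P under 0.05. VDR was at log2 0.27 (adjusted P = 0.34), and 1 of 8 alternatives called it. Its wild type libraries, at 45.6, 44.8 and 46.9 CPM, lay above those of pGFP, at 38.8, 38.8 and 36.4 CPM. NR1D1 came closest in size, with 0.969, 1.07 and 1.19 CPM in pGFP and 1.35, 1.98 and 1.81 CPM with wild type p53 (log2 0.67, SE 0.25, adjusted P = 0.11). A fit of only the 2 groups compared called 6 members, against 19.4% of genes there. With the other placement of the 2 contradictory libraries, which enters this comparison only through estimates shared by all groups, NR1D1 and NR1H4 passed (10.9% of genes), and without these libraries NR1D1 alone did (10.3% of genes).

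The response itself was compared between the times by an interaction term. In 6 of 41 members it changed, against 4.9% of all genes, with 3 shifted upward (2.53% of genes) and 3 downward (2.36% of genes). It became larger by 1.29 on the log2 scale for NR4A1 (SE 0.23, adjusted P = 0.0017), by 0.8 for VDR (SE 0.21, adjusted P = 0.022) and by 0.76 for NR2F2 (SE 0.21, adjusted P = 0.033). It became more negative for NR3C2 (log2 −0.99, SE 0.24, adjusted P = 0.015), NR6A1 (log2 −0.81, SE 0.21, adjusted P = 0.021) and NR2C2 (log2 −0.64, SE 0.12, adjusted P = 0.0033). NR4A1 and NR2C2 kept this call under every alternative and with every library left out. The count was 3 without pGFP replicate 1 of 24 h and 2 without wild type p53 replicate 1 of 24 h, and NR3C2 lost its call in both cases. VDR lost its call without wild type p53 replicate 1 or pGFP replicate 2 of 24 h, or without replicate 1 or replicate 2 of either group at 6 h. NR6A1 lost it without pGFP replicate 1 or wild type p53 replicate 1 or replicate 2 of 24 h, or without pGFP replicate 1 or replicate 2 or wild type p53 replicate 3 of 6 h. NR2F2 lost it without the same 3 libraries of 24 h, pGFP replicate 3 of 6 h or any wild type library of 6 h. NR1D1 lay just outside, at log2 1.17 (SE 0.35, adjusted P = 0.052), and passed with the other placement (adjusted P = 0.0054).

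**Figure D4:**
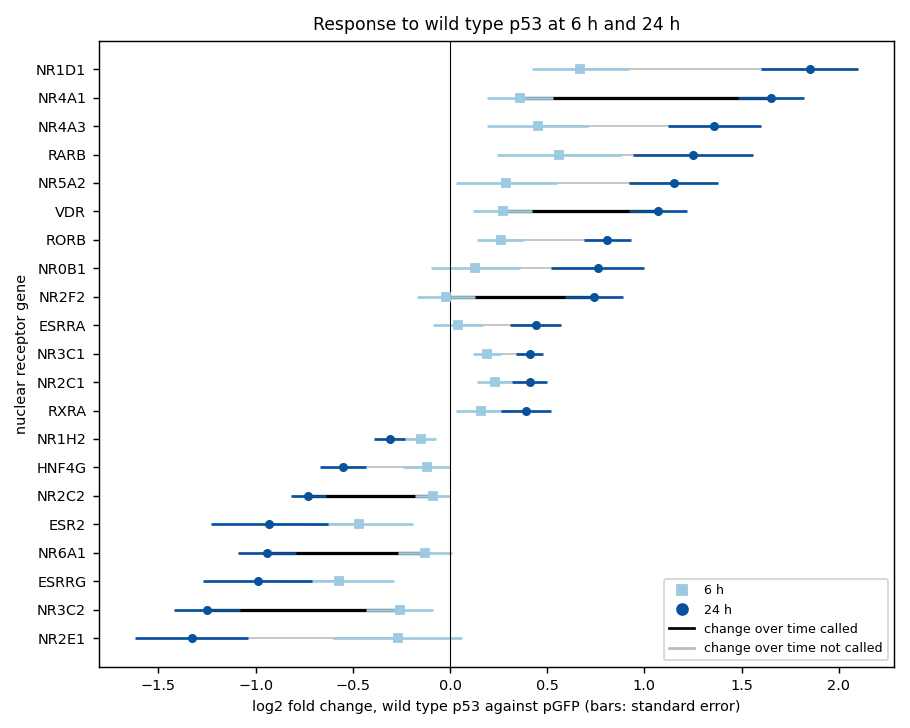
Log2 fold change of wild type p53 against pGFP at 6 h (light squares) and 24 h (dark circles), with SE bars, for the 21 members that passed at 24 h. Black connecting lines mark the 6 members whose response changed over time, with NR4A1 moving from 0.36 to 1.65.

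Time alone also moved the family. In pGFP cells 24 of 41 members differed between 24 h and 6 h, against 40.1% of all genes, with 21 higher (18.4% of genes) and 3 lower (21.8% of genes), and the median log2 difference was 0.35 over the members and 0 over all genes. ESR1 is among the 21 higher, with 0 counts in 10 of the 30 libraries and never more than 13. Its call rests on the libraries where it was detected and adds no support to the count. VDR was among the 3 that fell, from 38.8, 38.8 and 36.4 CPM to the 24 h values given above (log2 −0.66, SE 0.15, adjusted P = 0.00082). Its level with wild type p53 at 24 h, 40.2 to 60.0 CPM, thus spanned the 44.8 to 46.9 CPM with wild type p53 at 6 h, a pair of groups whose difference was not tested, while the pGFP level had dropped. ESRRA and NR1D2 were the others that fell, by 0.52 and 0.51 on the log2 scale.

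Rises with time in pGFP were seen in each of the 7 groups of the family. PPARA, the fatty acid sensor of liver and heart, went from 5.53, 6.28 and 7.0 CPM to 17.7, 16.5 and 14.7 CPM (log2 1.38, SE 0.13, adjusted P = 1.1e-08). All 3 NR4A genes rose, as did NR2E1 (log2 1.93, SE 0.3, adjusted P = 1.5e-05) and NR3C2 (log2 0.58, SE 0.16, adjusted P = 0.0061). NR2E1 and NR3C2, the members that wild type p53 lowered most at 24 h, thus stood in their wild type libraries at 0.475 to 1.33 CPM and 1.78 to 2.53 CPM, beside 0.436 to 0.626 CPM and 3.21 to 4.08 CPM in pGFP at 6 h. The calls of NR3C2, NR1H3, NR2C2, THRB and PPARG were lost without pGFP replicate 1 of 24 h, and that of NR1H2 without replicate 3 of either time. THRB also lost its call without replicate 3 of 6 h and PPARG without replicate 2 of 6 h.

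RW mutant p53 changed no member at 6 h or at 24 h, where 0.00479% of all genes passed at each time. No member had an unadjusted P under 0.05, and DESeq2 called none. The largest differences at 24 h were log2 0.36 (SE 0.23) for NR5A2, 0.33 (SE 0.32) for RARB and −0.32 (SE 0.32) for ESRRB. For VDR the difference was 0.18 with a 95% interval from −0.12 to 0.49, and for NR4A1 −0.12 with an interval from −0.46 to 0.22.

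The lesion vector in cells with active AGT, p53 O6-meG, gave no called member at 6 h (0.35% of genes, 1 member at an unadjusted P under 0.05). None was called by DESeq2 (1.53% of genes), with the other placement (7.35% of genes) or without both contradictory libraries (4.85% of genes). At 24 h it gave 21 called members, 12 higher (17.9% of genes) and 9 lower (11.3% of genes), against 29.3% of all genes. At least 2-fold rises were seen in NR1D1, NR4A1 and RARB (7.28% of genes) and falls in NR5A1, NR3C2 and NR2E1 (1.82% of genes). All 24 h comparisons with pGFP share the same 3 pGFP libraries, so their values are given side by side. NR1D1 was at log2 1.5 (SE 0.25) with p53 O6-meG and 1.85 with wild type p53, NR4A1 at 1.38 (SE 0.16) and 1.65, RARB at 1.14 (SE 0.31) and 1.25, NR4A3 at 0.94 (SE 0.24) and 1.36, VDR at 0.84 (SE 0.15) and 1.07, and NR5A2 at 0.5 (SE 0.23, adjusted P = 0.11) and 1.15. NR3C2 was at −1.28 (SE 0.17) and −1.25, and NR2E1 at −1.01 (SE 0.29) and −1.33.

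NR2F1 and NR5A1 fell with p53 O6-meG, and a difference between p53 O6-meG and wild type p53 was not tested. NR2F1 read 7.09, 8.77 and 7.73 CPM in pGFP, 8.75, 9.0 and 8.43 CPM with wild type p53 and 4.99, 6.73 and 5.9 CPM with p53 O6-meG (log2 −0.42, SE 0.13, adjusted P = 0.018), a call that was lost without p53 O6-meG replicate 1 and without pGFP replicate 2. NR5A1 fell from 0.48, 0.409 and 0.345 CPM to 0.176, 0.15 and 0.172 CPM (log2 −1.3, SE 0.47, adjusted P = 0.037), a call lost without any 1 of 5 of these 6 libraries. Of the 21 calls, 11 were kept in every alternative and with every library left out. The others, besides NR2F1 and NR5A1, were RARG, HNF4G, NR2E1, NR2F2, ESR2, ESRRA, ESRRG and NR0B1. HNF4G was lost without pGFP replicate 2, NR2E1 without p53 O6-meG replicate 2, and the other 6 without pGFP replicate 1 and without at least 1 p53 O6-meG library.

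In p53 TM at 24 h 6 members differed from pGFP, against 9.2% of all genes, 3 of them higher (7.71% of genes) and 3 lower (1.49% of genes). RORB (log2 0.46, SE 0.12, adjusted P = 0.013), PPARA (log2 0.41, SE 0.12, adjusted P = 0.034) and NR2C1 (log2 0.33, SE 0.09, adjusted P = 0.018) were higher, and NR3C2 (log2 −0.54, SE 0.16, adjusted P = 0.038), NR2F1 (log2 −0.42, SE 0.13, adjusted P = 0.045) and HNF4G (log2 −0.38, SE 0.12, adjusted P = 0.038) were lower. None reached 2-fold. These calls were fragile: none was kept under every alternative, the count was 0 without p53 TM replicate 1, 1 without pGFP replicate 2 or replicate 3 and 3 without p53 TM replicate 3, and a fit of only these groups called none (6.34% of genes). PPARA stood at 23.1, 23.7 and 18.4 CPM in p53 TM, above 15.7, 18.0 and 14.7 CPM with wild type p53 and 17.5, 17.2 and 14.5 CPM with p53 O6-meG.

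The direct comparison of p53 TM with wild type p53 takes in the lesion and O6-benzylguanine together. At 24 h 17 of 41 members differed (18.5% of all genes), 4 of them higher (8.46% of genes) and 13 lower (10% of genes) in p53 TM. NR4A1 read 32.3, 26.1 and 21.0 CPM in p53 TM, 2.44-fold below wild type p53 (log2 −1.29, SE 0.16, adjusted P = 1.3e-05), and NR1D1 read 2.76, 1.9 and 2.34 CPM, 2.12-fold below (log2 −1.09, SE 0.23, adjusted P = 0.0021). NR5A2, NR2F2, NR4A3 and VDR were lower by 0.97, 0.88, 0.84 and 0.7 on the log2 scale, with no overlap between the libraries of the groups. RARB was at log2 −0.68 (SE 0.3, adjusted P = 0.12) with overlapping libraries. NR2F1 (log2 −0.57, adjusted P = 0.0037) and THRA (log2 −0.31, adjusted P = 0.017) were lower as well. Neither these nor PPARA had passed with wild type p53 against pGFP. Higher in p53 TM were NR3C2 (log2 0.71, SE 0.17, adjusted P = 0.0048), NR6A1 (log2 0.64, SE 0.15, adjusted P = 0.0039), NR2C2 (log2 0.48, SE 0.09, adjusted P = 0.00052) and PPARA (log2 0.43, SE 0.12, adjusted P = 0.017).

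The p53 TM values of NR4A1, NR1D1, VDR, NR3C2, NR6A1 and NR2C2 lay between the means of pGFP and wild type p53. Of these genes, only NR3C2 passed against pGFP, and VDR was at log2 0.37 (adjusted P = 0.13). NR2F2, at 9.99, 10.6 and 10.3 CPM, was at log2 −0.14 (SE 0.15) from pGFP with a 95% interval from −0.45 to 0.18. Whether these genes differ in how much of the response remained was not tested. Against wild type p53, the calls of NR1D1, NR2C2, NR2F1, NR2F2, NR3C2, NR4A1, NR6A1 and VDR were kept in every alternative and with every library left out. The remaining 9, THRA, RXRA, PPARA, RORB, ESRRA, NR3C1, NR4A3, NR5A2 and NR0B1, were lost in at least 1 of them, and the count was 11 without p53 TM replicate 3 and 9 in a fit of only these groups (9.31% of genes).

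At 6 h the same comparison depends on the 2 contradictory libraries. As placed, no member differed (0.0766% of genes, 10 members at an unadjusted P under 0.05). DESeq2 called 2 members, where 2.56% of genes passed. With the other placement 13 members differed, 2 higher and 11 lower in p53 TM (14.6% of genes), and without both libraries 4 did (10.9% of genes). NR1H4, the bile acid receptor, differed most under the other placement (log2 1.2, SE 0.16, adjusted P = 3.2e-06). It read 2.61, 3.25 and 3.29 CPM with wild type p53, 4.2, 4.21 and 4.5 CPM in pGFP and 7.15, 3.4 and 7.51 CPM in the libraries labelled p53 TM, where the value 3.4 is that of the contradictory replicate 2, and its p53 O6-meG counterpart read 6.36 CPM between 2.54 and 3.27 CPM. NR1D1 (log2 −1.12, SE 0.2, adjusted P = 0.00012), VDR (log2 −0.46, SE 0.13, adjusted P = 0.01) and NR4A1 (log2 −0.52, SE 0.14, adjusted P = 0.012) were lower under that placement. Against pGFP, p53 TM at 6 h had no called member as placed (0.0814% of genes, 2 at an unadjusted P under 0.05, none by DESeq2) and NR1H4 alone under the other placement (0.316% of genes), and none without both libraries (0.202% of genes).

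The genes that serve the receptors were read from 3 lists. Of 21 coregulators, 4 were higher and 3 lower with wild type p53 at 24 h, a share of 33.3% beside 34.9% of all genes. NCOR1, the corepressor that unliganded thyroid and retinoid receptors and REV-ERB recruit, read 133, 146 and 151 CPM in pGFP and 349, 292 and 267 CPM with wild type p53, a rise of 2.11-fold (log2 1.08, SE 0.11, adjusted P = 4.3e-08). PPARGC1B, a coactivator of estrogen-related receptors, rose 3.11-fold (log2 1.64, SE 0.18, adjusted P = 1.8e-07), from 5.01, 6.88 and 6.42 CPM to 21.3, 19.0 and 16.9 CPM. NSD1, a histone methyltransferase that binds receptors, was 1.96-fold higher (log2 0.97, SE 0.18, adjusted P = 9e-05), and the coactivator NCOA2 1.27-fold lower (log2 −0.34, SE 0.06, adjusted P = 6.8e-05).

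Genes of ligand supply, which make, carry or break down receptor ligands, passed in 10 of 18 tested (55.6%, beside 34.9% of all genes), 7 higher (20.3% of all genes) and 3 lower (14.6% of all genes). RDH10, the enzyme that oxidizes retinol to retinal, read 45.5, 54.1 and 50.3 CPM in pGFP and 208, 174 and 140 CPM with wild type p53 (3.48-fold, log2 1.8, SE 0.14, adjusted P = 3.2e-09). DHRS3, which reduces retinal back to retinol, rose 6.04-fold (log2 2.6, SE 0.28, adjusted P = 1.2e-07), from 2.0, 2.52 and 2.71 CPM to 18.8, 14.2 and 10.9 CPM. Both sides of this step of the retinoid cycle were thus higher. ALDH1A1, a retinal dehydrogenase, had 0 counts in the 3 pGFP libraries at 24 h and 0.351, 0.389 and 0.214 CPM with wild type p53. It had 0 counts in 18 of the 30 libraries and never more than 18. Its place among the 10 thus rests on the libraries where it was detected and adds no support to the count. HSD11B2, also among the 10 (adjusted P = 0.048), kept its call in 1 of 8 alternatives. CYP2R1, the vitamin D 25-hydroxylase, fell 1.66-fold (log2 −0.73, SE 0.13, adjusted P = 8.1e-05), from 10.3, 10.1 and 9.25 CPM to 5.06, 6.54 and 6.24 CPM. The vitamin D enzyme gene CYP27B1 went the other way and rose by log2 0.65 (adjusted P = 0.00052). CYP24A1, a classical target of VDR, was named after its values were seen and was at log2 0.02 (SE 0.27, adjusted P = 0.97).

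Of 27 known target genes of receptors that were tested, 12 passed at 24 h (44.4%, beside 34.9% of all genes), 8 higher and 4 lower. At 6 h 4 of the 27 targets (14.8%), 2 of 21 coregulators (9.52%) and 1 of 18 genes of ligand supply (5.56%) passed. All of these were higher, where 8.75% of all genes passed. ABCA1, a target of LXR, was among them at log2 2.83 (adjusted P = 0.0021). LPCAT3, a phospholipid-remodelling target of LXR, rose from 32.2, 28.4 and 33.8 CPM to 148, 112 and 82.1 CPM (3.63-fold, log2 1.86, SE 0.24, adjusted P = 1.1e-06). EMG1 overlaps 66.0% of the exon length of LPCAT3 on the opposite strand, which makes its count uncertain. Of the other LXR targets listed, ABCA1 rose by log2 3.24 (adjusted P = 9.2e-05) and MYLIP by 0.48 (adjusted P = 0.0094). The call of MYLIP was lost without wild type p53 replicate 1, and ABCG1 and SREBF1 did not pass. The PPAR targets CPT1A, which brings fatty acids into mitochondria, and PLIN2, which coats lipid droplets, rose 1.63-fold and 1.54-fold. FKBP5, the glucocorticoid-induced chaperone of the glucocorticoid receptor, fell 1.49-fold (log2 −0.58, SE 0.09, adjusted P = 1.1e-05), from 59.1, 59.0 and 56.8 CPM to 35.2, 37.0 and 44.8 CPM. DUSP1 and PER1, which glucocorticoids also induce, rose instead, by log2 0.77 (SE 0.15, adjusted P = 0.00026) and 0.48 (SE 0.12, adjusted P = 0.002).

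In p53 TM at 24 h these genes differed from wild type p53 as well. RDH10 was 2.04-fold lower (log2 −1.03, SE 0.13, adjusted P = 1.8e-05) at 106, 79.2 and 70.8 CPM, DHRS3 2.48-fold lower (log2 −1.31, SE 0.26, adjusted P = 0.0011) and PPARGC1B 2.44-fold lower (log2 −1.29, SE 0.18, adjusted P = 4.2e-05). FKBP5 was 1.35-fold higher (log2 0.44, SE 0.09, adjusted P = 0.0013). NSD1, at 367, 288 and 254 CPM, did not pass against wild type p53 (log2 −0.23, SE 0.17, adjusted P = 0.4). The part of the receptors in the changes of these genes was not tested.

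**Figure D5:**
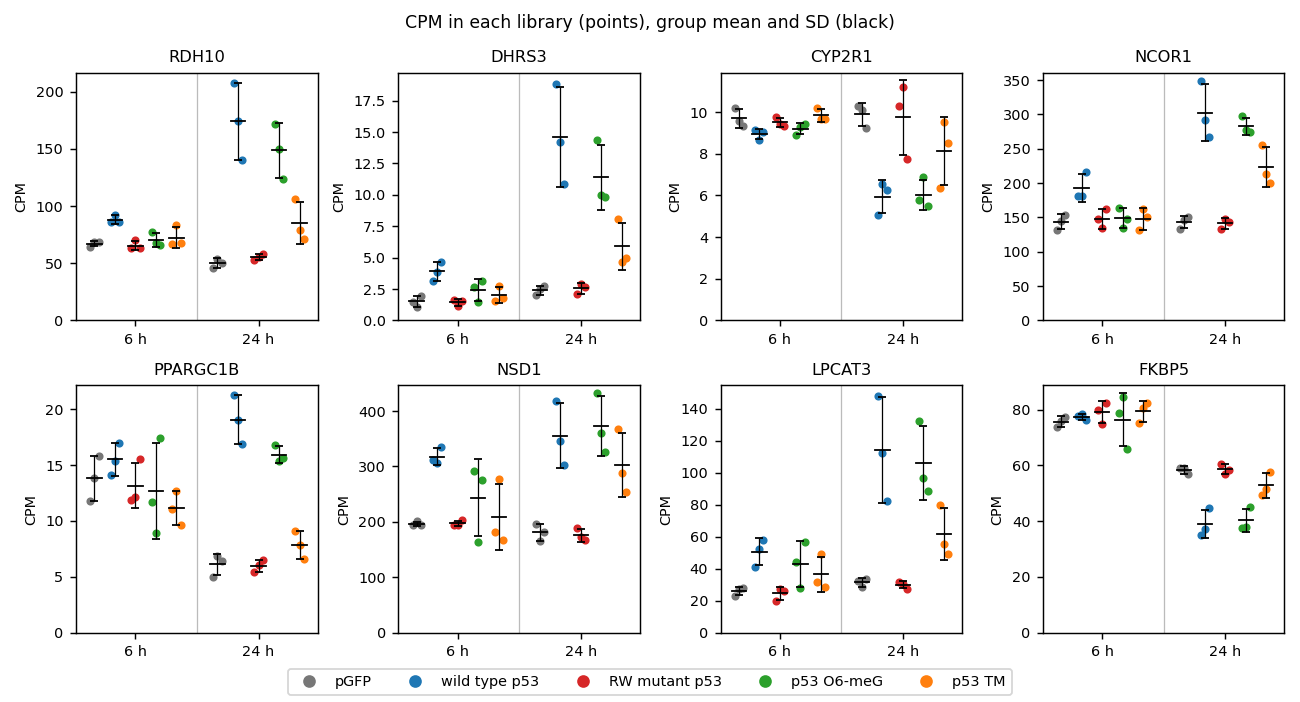
CPM of 8 genes of ligand supply (RDH10, DHRS3, CYP2R1), coregulation (NCOR1, PPARGC1B, NSD1) and receptor targets (LPCAT3, FKBP5) in each of the 30 libraries (points, coloured by vector) with the group mean and SD in black, at 6 h (left) and 24 h (right). In RDH10 at 24 h the wild type libraries span 140 to 208 CPM, those of p53 TM 70.8 to 106 CPM and those of pGFP 45.5 to 54.1 CPM.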

How the data were processed

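Total RNA of sorted H1299 cells was sequenced in 30 libraries, 10 groups of 3. Alignment by the authors used STAR v2.5.3a and hg38, and featureCounts of Subread v1.5.2 gave the deposited raw read counts per GENCODE v27 gene. The library kit keeps strand, but the option used for counting is not given in the sources used here. A deposited table of normalized signal was not used here. Exon lengths and exon overlaps were taken from a later GENCODE release than v27. Levels per kb and overlap shares may therefore not match the exons that were counted.

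Tests were run with edgeR 4.0.16 under R 4.3.3 (filterByExpr with the groups, TMM, quasi-likelihood test, all groups in 1 fit with 20 residual degrees of freedom, Benjamini-Hochberg adjustment over 20875 genes). CPM use TMM-scaled library sizes. A call is an adjusted P under 0.05 and a DEG also changes at least 2-fold. Members with few counts at the depths given above have large standard errors. Alternatives were DESeq2 1.42.0, its size factors, other count filters, a fit of only the groups compared, a replicate block, other placements of the 2 contradictory libraries, and each library left out.

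Same-numbered libraries deviated together at 24 h (30 of 30 pairs correlated above 0.1, median 0.643), but not in all 9 pairs at 6 h (8 of 9). The main tests did not use this pairing. The replicate block fitted 1 effect per replicate number, shared by the libraries of 6 h and 24 h, so it did not pair the 24 h replicates separately. No library duplicated another of its group (chi-square per degree of freedom at least 5.51).

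The members, gene lists, motifs and the rule for named genes were chosen with earlier results of these data known. Named were VDR, the 20 members with the largest change among those called with wild type p53, the members called in the change over time, the highest member per time, and the 4 smallest P of each related list at 24 h. NR1H2, which came last of the 21 called, and the members named in other comparisons lie outside this rule. So do DUSP1, PER1, CYP24A1, CYP27B1, HSD11B2 and the LXR targets other than LPCAT3. All of these were chosen after their values were seen. CRABP1, TFF1 and CD3E were not analysed here, and the level of the transfected gene is not reported here. Promoter windows, from RefSeq on GRCh38.p14, matched 41 members. VDR, HNF4G, NR2F6, NR4A2 and NR0B2 had none.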

Additional observations from a re-analysis of the deposited data

Results flagged for a closer look

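The response to wild type p53 differed between 6 h and 24 h, by the interaction term, in 6 of 41 receptor genes tested, against 4.9% of all genes. The calls of NR4A1 and NR2C2 were kept with every library left out, and the other 4 were lost without single libraries. On the log2 scale the response grew by 1.29 for NR4A1, 0.8 for VDR and 0.76 for NR2F2, and shifted by −0.99 for NR3C2, −0.81 for NR6A1 and −0.64 for NR2C2. In pGFP cells over the same interval VDR fell and NR4A1, NR3C2 and NR2C2 rose, while NR2F2 and NR6A1 were at log2 −0.2 (SE 0.15) and 0.09 (SE 0.14) and did not pass. The part of these changes in the control in the 6 differences was not tested.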

How the results depend on the processing

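With wild type p53 at 24 h, p53 O6-meG at 24 h and time in pGFP, the counts of called members stayed within 1.5 times of 21, 21 and 24 under every alternative. Leaving out 1 library gave 17 to 22, 14 to 19 and 19 to 24 in these 3 comparisons, 0 to 5 for p53 TM against pGFP at 24 h, 11 to 18 and 0 to 3 for p53 TM against wild type p53 at 24 h and 6 h, 2 to 7 for the change over time, and 0 in the others. A fit of only the groups compared gave 6 for wild type p53 at 6 h, 0 for p53 TM against pGFP at 24 h and 9 against wild type p53. Without a filter on low counts p53 TM at 24 h gave 0 against pGFP, and p53 TM at 6 h gave 1 against wild type p53 (0.816% of genes), for which DESeq2 gave 2 (2.56% of genes). The other placement of the 2 contradictory libraries gave 2 for wild type p53 against pGFP, 1 for p53 TM against pGFP and 13 for p53 TM against wild type p53 at 6 h, and leaving both out gave 1, 0 and 4. With the replicate block, the counts were 21 for wild type p53, 22 for p53 O6-meG, 6 and 17 for p53 TM at 24 h and 7 for the change over time, and it moved no count by more than 1.5 times. No call changed sign under any alternative. Leaving out a library or fitting only the groups compared uses fewer samples, and beyond that the cause was not tested. Members under 1 CPM rest on few reads, so that differences there were not detectable unless large.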
